A study of Mus musculus with 6 samples.

Results

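The nuclear genes for subunits of the mitochondrial respiratory chain and ATP synthase were compared between young and old mouse cochlear lateral wall. They were taken by gene symbol, namely all genes whose name begins with Nduf, Uqcr, Cox4 to Cox8, Sdh or Atp5, without Ndufa4l2. This gave 93 genes of the 18193 that had a probe set with 1 symbol, and each gene was read from its brightest probe set over all 6 arrays. Of these, 81 encode subunits of the complexes (34 of complex I, 4 of complex II, 8 of complex III, 18 of complex IV and 17 of complex V), and 12 encode assembly factors that carry the same prefixes. The lateral wall, made up of the stria vascularis and the spiral ligament behind it, was dissected from CBA/CaJ mice of both sexes, an inbred strain without a transgene or treatment, at 1 to 3 months (young) and 1.5 years (old). Each age was measured on 3 Affymetrix expression arrays, which read a single sample in a single colour. Values are log2 signals. The SD after ± is over the 3 arrays of an age, and every difference is old minus young, with the standard error that limma gave it after ±.

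The respiratory chain passes electrons from NADH (complex I) and succinate (complex II) through ubiquinone, complex III, cytochrome c and complex IV to oxygen, and complexes I, III and IV pump protons. Complex V, the ATP synthase, lets the protons flow back and makes ATP. Complexes I, III, IV and V also contain subunits encoded by mitochondrial DNA, while all of complex II is encoded in the nucleus. In the stria, marginal cells are rich in mitochondria and spend much ATP on the sodium pump that sustains the endolymph potential.

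Most lateral wall markers had a mean above the median signal. They were 7 of 8 marginal cell, 9 of 11 intermediate cell and 14 of 14 basal cell and fibrocyte markers. The lowest means of these lists were 5.45, 4.16 and 10.08. The mean signal was 14.41 for the fibrocyte gene Coch, 14.10 for the fibrocyte gene Otos, 13.95 for the marginal cell cotransporter Slc12a2 and 11.99 for the marginal cell channel subunit Kcne1. Young replicate 2 stood apart in its sex-linked RNA, with an Xist signal of 6.06 against 11.95 to 12.65 on the other arrays. Calls among the 93 genes that change without it are given both ways, while the shares of all genes include it. RNA of the Y-linked Uty, Kdm5d and Eif2s3y was highest there, at 8.99, 8.96 and 10.46, and gave signals of 7.41 to 8.03, 7.19 to 8.04 and 8.97 to 9.71 on the other 5 arrays, all above the median signal of 6.28 despite the high Xist. The Gapdh controls read 1.07 to 1.25 higher (log2) at the 3′ than at the 5′ end on young arrays and 1.26 to 1.45 higher on old arrays. The beta-actin controls overlapped between the ages, at 1.46 to 1.60 on young and 1.39 to 1.84 on old arrays. The part of these values in the results was not tested. Whether same-age samples were separate animals or pools is not stated in the labels, so the spread between arrays may be technical. Each limma p-value and standard error rests on that spread, drawn towards the spread common to all tested probe sets. Cox6a2, with SDs of 0.006 in young and 0.010 in old tissue, was thus given a standard error of 0.07.

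Among the 81 subunits of the complexes, 0 passed a limma adjusted p of 0.05 between the ages, where 4.78% of all genes passed in either direction (2.45% higher and 2.33% lower in old tissue). At an unadjusted p under 0.05, limma gave 3 subunits higher in old tissue and 0 lower, against 13.5% and 7.23% of all genes. The 95% intervals of the differences were narrow: for 67 of the 81 subunits (82.7%) the whole interval lay within 0.3 log2 of 0, a change of 1.23-fold. The same was true of 38.9% of all genes, and of 58.7% of the 1742 genes with a mean signal above 11, where 71 of the subunits lie. These 71 were brighter still, with a median signal of 12.8 against 11.8 for the 1742 genes, and the highest value of the table was 14.76. The part of signal in these shares was not tested. Of those 1742 genes, 3.62% passed in either direction, against 0 of the 71 subunits. The differences of the subunits ran from -0.08 to 0.43, with a median of 0.05, and the median over all genes was 0.03. In whole-tissue RNA, a change in the number of a cell type and a change in the RNA per cell cannot be told apart.

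**Figure D1:**
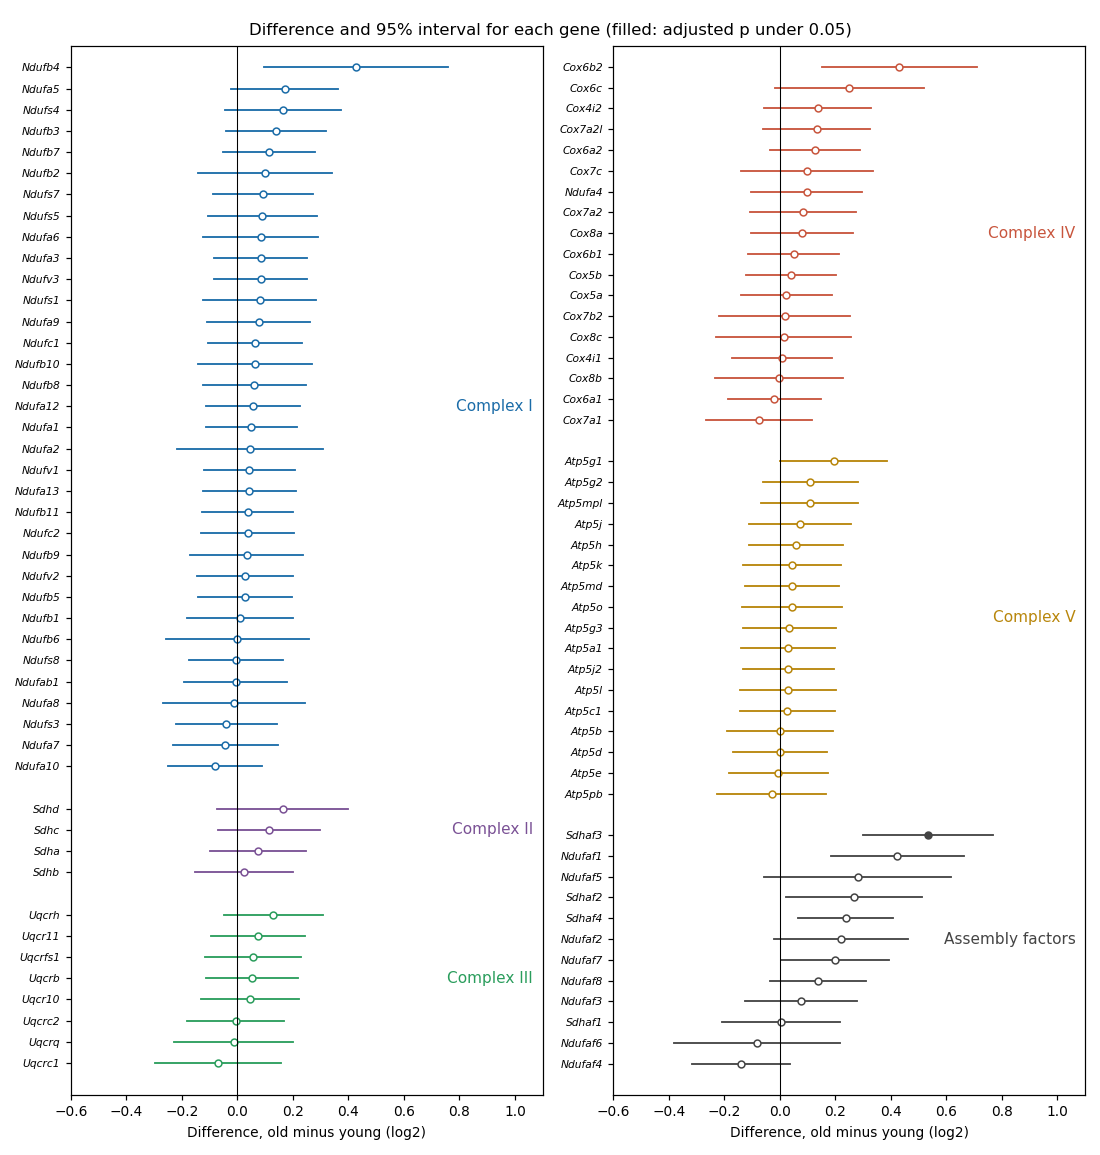
Difference between old and young tissue (log2, points) with its 95% interval from limma (lines) for each of the 93 genes, grouped by complex and ordered by size. A filled point marks an adjusted p under 0.05, which Sdhaf3 reached at 0.53, and the points of the subunits lie between -0.08 and 0.43.

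Small differences were more often above than below 0. Of the 81 subunits, 64 had a difference above 0 (79.0%), 14 below 0 and 3 of exactly 0, while 57.9% of all genes had a difference above 0. The 3 old values lay above all 3 young values for 19 subunits and below them for 0, where 17.0% of all genes were separated upward and 9.70% downward. Of the 71 subunits with a signal above 11, 15 were separated upward and 0 downward, against 354 and 207 of the 1742 genes above that signal. Differences above 0 made up 76.1% of these 71 subunits and 59.1% of the 1742 genes. These shares were not tested against each other.

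**Figure D2:**
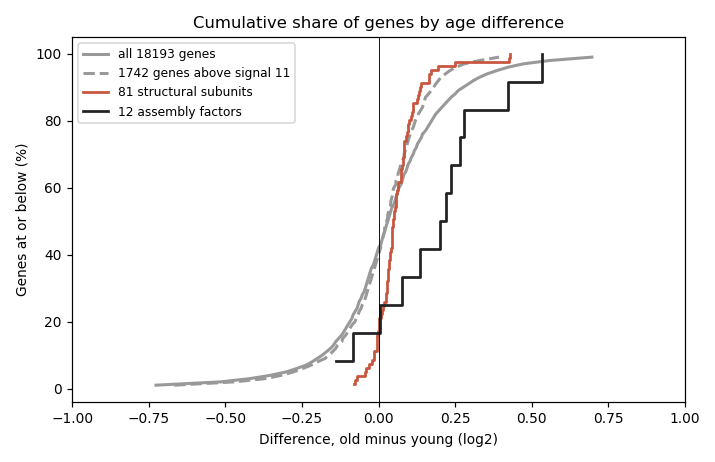
Cumulative percentage of genes (vertical axis) by the old minus young difference in log2 (horizontal axis), for the 81 subunits, the 12 assembly factors, all 18193 genes and the 1742 genes with a signal above 11. The subunits rise steeply around their median of 0.05, and the assembly factors are spread to the right with a median of 0.21.

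The level of a group on an array was taken as the median, over its genes, of the value minus the gene's mean over the 6 arrays. For the 81 subunits it was -0.06, 0.01 and -0.02 on young replicates 1, 2 and 3, and 0.07, 0.01 and 0.02 on old replicates 1, 2 and 3. Young replicate 1 held the lowest of the 6 values for 42 of the subunits, and old replicate 1 held the highest for 42. Young replicate 2 lay with old replicates 2 and 3. Over all genes the same measure was -0.02 to -0.01 on young and 0.00 to 0.03 on old arrays. Without young replicate 1 the median difference of the subunits was 0.03, and without old replicate 1 it was 0.04.

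**Figure D3:**
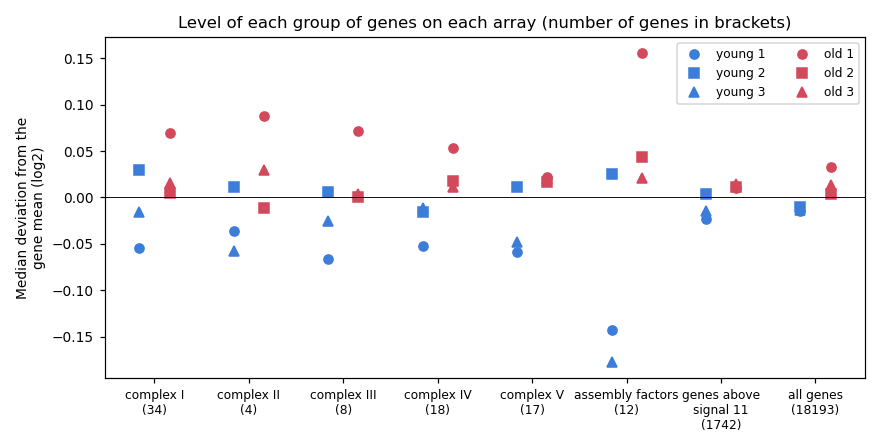
Level of each complex, of the assembly factors, of all genes with a signal above 11 and of all genes on each array, as the median deviation from the gene mean in log2; each point is 1 array, blue for young and red for old, and the symbol gives the replicate. Old replicate 1 is the highest array in the 5 complexes and the assembly factors, and the assembly factors span -0.18 to 0.16, a wider range than any complex.

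Complex I takes electrons from NADH by a flavin and a chain of iron-sulfur clusters held in its core subunits. The core subunit Ndufv1, which binds NADH and the flavin, had signals of 12.43, 12.48 and 12.49 in young and 12.51, 12.50 and 12.52 in old tissue. These did not overlap, but the difference was 0.04 ± 0.07 (limma adjusted p = 0.829). Ndufs1, the largest iron-sulfur subunit, had 11.58, 11.66 and 11.46 in young and 11.75, 11.57 and 11.62 in old tissue, and the ages overlapped. Its difference was 0.08 ± 0.09 (limma adjusted p = 0.723). All 6 core subunits had intervals within 0.3 log2 of 0, with differences of -0.04 to 0.09.

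The 28 accessory subunits of complex I, which surround and stabilise the core, had a median difference of 0.06 and a range of -0.08 to 0.43. Ndufa10 had the lowest difference, -0.08 ± 0.07, with an interval of -0.25 to 0.09. Ndufa7 followed at -0.04 ± 0.08. Ndufa5, an accessory subunit of the arm that reaches into the matrix, had 11.67, 11.88 and 11.75 in young and 11.89, 11.93 and 11.99 in old tissue. Its difference was 0.17 ± 0.08 (limma adjusted p = 0.329), and the interval of -0.02 to 0.36 allows a change in either direction. Ndufb4, an accessory subunit of the membrane arm, had the largest difference, 0.43 ± 0.15 (limma adjusted p = 0.147). Its signals were 5.26, 5.81 and 5.37 in young and 5.77, 5.91 and 6.04 in old tissue, so the ages overlapped at young replicate 2. All of these lie below the median signal of the array, 6.28, where a probe set may report little but background. Without young replicate 2 its difference was 0.59 (limma adjusted p = 0.0184).

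Complex II is succinate dehydrogenase and also works in the citric acid cycle. Its flavin subunit Sdha had 12.36, 12.41 and 12.36 in young and 12.51, 12.39 and 12.45 in old tissue, a difference of 0.07 ± 0.08 (limma adjusted p = 0.695). The iron-sulfur subunit Sdhb differed by 0.02 ± 0.08. The membrane anchors Sdhc and Sdhd differed by 0.11 ± 0.08 and 0.16 ± 0.10 (limma adjusted p = 0.528 and 0.461). All 4 differences were above 0 and 0 passed, and 3 of the 4 intervals stayed within 0.3 log2 of 0.

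Complex III moves electrons from ubiquinol to cytochrome c. Its Rieske iron-sulfur protein Uqcrfs1 had 12.03, 12.09 and 11.98 in young and 12.13, 12.05 and 12.09 in old tissue. The ages overlapped, with a difference of 0.06 ± 0.08 (limma adjusted p = 0.779). Uqcrh, the hinge protein, had the highest difference, 0.13 ± 0.08, followed by Uqcr11 at 0.07 ± 0.07. Uqcrc1, a core protein of the matrix side, had the lowest, -0.07 ± 0.10, and Uqcrq had -0.01 ± 0.09 (limma adjusted p = 0.433, 0.690, 0.796 and 0.966 for these 4 genes).

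Complex IV, cytochrome c oxidase, has several nuclear subunits that exist as paired isoforms, a widespread one and one restricted to certain tissues. The widespread subunit Cox4i1 had 13.62, 13.76 and 13.77 in young and 13.69, 13.75 and 13.73 in old tissue, a difference of 0.01 ± 0.08. Cox6a1, Cox6b1, Cox7a2 and Cox8a, the widespread forms of their pairs, differed by -0.02, 0.05, 0.08 and 0.08. Cox5a was the steadiest subunit of all 81 at the probe sets used: its 6 signals spanned 0.05 log2. Another probe set of Cox5a, with a mean of 13.32, ran from 13.16 to 13.46. Cox6c had 12.83, 12.95 and 12.88 in young and 13.40, 13.03 and 12.98 in old tissue, a difference of 0.25 ± 0.12 (limma adjusted p = 0.297), with old replicate 1 far above the other old arrays. A second probe set of Cox6c, with a mean of 12.2, differed by 0.02, and there old replicate 1 was the lowest old array. Cox7a2l, which helps complexes III and IV join into supercomplexes, differed by 0.13 ± 0.08 (limma adjusted p = 0.464).

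Cox7a1, Cox8b and Cox6a2 are isoforms known from striated muscle, and the first 2 also from brown fat. Cox7a1 had signals of 12.16, 12.36 and 12.34 in young and 12.19, 12.21 and 12.23 in old tissue, and Cox8b had 12.60, 12.78 and 12.89 in young and 12.85, 12.77 and 12.64 in old tissue. Both were bright on every array and both ages overlapped, with differences of -0.08 ± 0.08 and 0.00 ± 0.10 (limma adjusted p = 0.715 and 0.990). Cox6a2, also a muscle form, had signals of 6.66 to 6.67 in young and 6.78 to 6.80 in old tissue. The ages of Cox6a2 did not overlap, at a difference of 0.13 ± 0.07 (limma adjusted p = 0.394). Of 26 striated muscle markers, 9 had a mean above the median signal of 6.28, and the brightest, Eno3, had 8.44. Among these markers the means were 5.97 for Acta1, 5.85 for Ckm and 6.32 for Mb. Of 9 fat genes, 2 had a mean above the median signal and the brightest had 8.01, while the brown fat gene Ucp1 had 4.90. The part of muscle or fat in the signals of Cox7a1 and Cox8b was not tested. The summed signal of the muscle markers, as log2 of the sum, was 10.94 to 10.97 on young and 10.93 to 11.19 on old arrays, and overlapped.

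Cox4i2, the form linked to lung and low oxygen, and Cox7b2 lay below the median signal of the array, with means of 5.96 and 4.23, and differed by 0.14 ± 0.08 and 0.02 ± 0.10. Cox8c, known from testis, had a mean of 7.71 and differed by 0.01 ± 0.11. Cox6b2, also known from testis, had the largest difference of complex IV, with 7.07, 7.42 and 7.56 in young and 7.75, 7.79 and 7.80 in old tissue. These values did not overlap, but the difference of 0.43 ± 0.12 did not pass (limma adjusted p = 0.0913).

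Complex V couples a rotating ring of c subunits in the membrane to the catalytic head, F1. Of the F1 subunits, Atp5a1 (alpha) had 13.39, 13.45 and 13.43 in young and 13.40, 13.46 and 13.50 in old tissue. Atp5b (beta) had 13.10, 13.27 and 13.29 in young and 13.24, 13.18 and 13.24 in old tissue. Their differences were 0.03 ± 0.07 and 0.00 ± 0.08, and both intervals lay within 0.3 log2 of 0. Atp5pb and Atp5e had the lowest differences of the complex, -0.03 ± 0.09 and -0.01 ± 0.08. The c subunit is encoded by 3 genes for the same mature protein. Atp5g1 had 12.25, 12.39 and 12.19 in young and 12.51, 12.41 and 12.49 in old tissue, a difference of 0.19 ± 0.08 (limma adjusted p = 0.257). Atp5g2 differed by 0.11 ± 0.07 and Atp5g3 by 0.03 ± 0.07 (limma adjusted p = 0.499 and 0.878). For Atp5g1 and Atp5g2 the old values lay above the young values. Of the 17 genes of complex V, 16 had intervals within 0.3 log2 of 0.

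Assembly factors help build the complexes but are not part of them. Sdhaf3, which helps insert the iron-sulfur clusters of Sdhb, was the 1 gene of all 93 to pass. It had signals of 8.33, 8.70 and 8.50 in young and 9.02, 9.02 and 9.09 in old tissue, so each old value was above each young value. It rose by 0.53 ± 0.10, or 1.45-fold (limma adjusted p = 0.0273). The call was lost on leaving out any array except young replicate 2 (limma adjusted p of 0.0607 to 0.118, differences of 0.44 to 0.55), and without young replicate 2 it was 0.00945. A dimmer probe set of Sdhaf3, with a mean of 3.41, differed by -0.06, and the mean of the 2 probe sets gave 0.24 (limma adjusted p = 0.109 over genes).

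Ndufaf1, an early factor of complex I assembly, had 8.77, 9.13 and 8.84 in young and 9.39, 9.33 and 9.29 in old tissue. The groups did not overlap and the difference was 0.42 ± 0.11, just short of the threshold (limma adjusted p = 0.0598). It passed without young replicate 2, at 0.53 (limma adjusted p = 0.0128), and under 5 other settings with all arrays (limma adjusted p of 0.0199 to 0.0485). Sdhaf4, which acts on Sdha, had 10.70, 10.77 and 10.66 in young and 10.98, 10.93 and 10.93 in old tissue, a difference of 0.24 ± 0.08 (limma adjusted p = 0.122). At the other end, Ndufaf4 had -0.14 ± 0.08 and Ndufaf6 had -0.08 ± 0.13 (limma adjusted p = 0.386 and 0.819). The second probe set of Ndufaf4, with a mean of 9.54, differed by 0.08. Over the 12 factors the median difference was 0.21, with 10 above 0, and it was 0.12 without old replicate 1. Genes of like signal, from 8 to 11, had a median of 0.06, and 3.13% of them passed upward. The median probe signal was 9.24 for the assembly factors and 12.62 for the subunits, and whether the groups differ in their response was not tested.

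**Figure D4:**
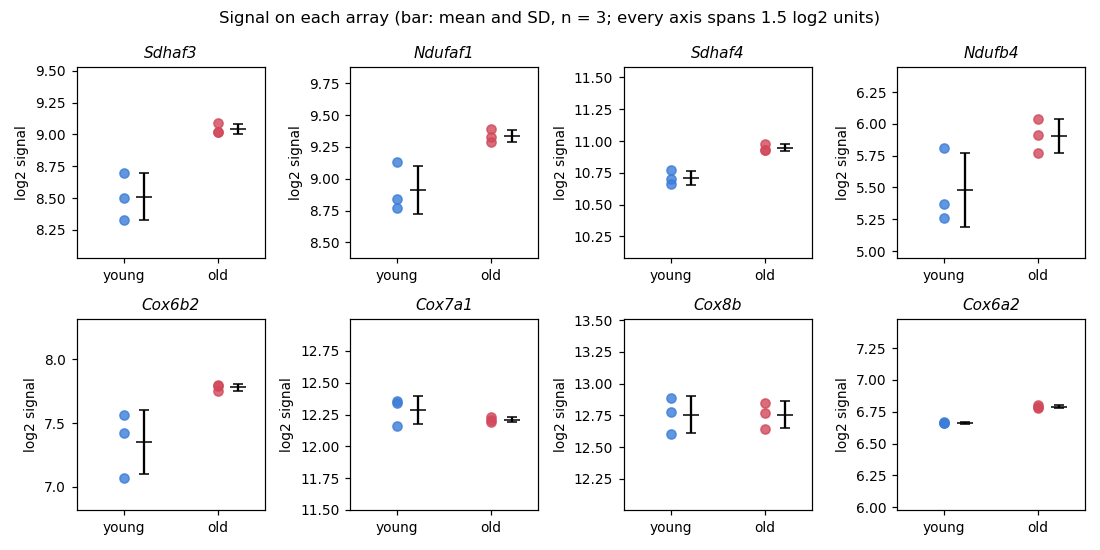
Log2 signal on each array for 8 genes, with young arrays in blue, old arrays in red, and the mean and SD of 3 arrays beside them; every axis spans 1.5 log2 units. Sdhaf3 rises from 8.33 to 8.70 in young tissue to 9.02 to 9.09 in old tissue, while the muscle isoforms Cox7a1 and Cox8b overlap between the ages.

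Several probe sets were present for 53 of the 93 genes. In 48 genes with at least 2 probe sets above the median signal, the differences spanned under 0.1 log2 in 34 and at least 0.3 in 3. These 3 were Ndufab1 (-0.01 to 0.58), Atp5c1 and Cox8a (0.08 to 0.40), chosen after their values were seen. Of 184 probe sets, 2 passed, where 4.71% of all probe sets did: that of Sdhaf3 and a dimmer one of Atp5c1, the gamma subunit of F1. The latter fell from 8.91 ± 0.11 to 8.41 ± 0.21 (limma adjusted p = 0.0482), while the bright probe set of Atp5c1, with a mean of 13.39, differed by 0.03. Which transcripts each probe set reads was not tested.

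Promoters of 4 genes are shown because some of the regulators described after them act through sites in such promoters. Nuclear respiratory genes are known for binding sites of NRF1, of ETS factors such as GABP, of YY1 and of the estrogen-related receptors. Below are the 250 bases before the start of 4 genes from RefSeq (GRCm38.p6), 5′ to 3′ on the gene's strand, with capitals marking the NRF1 palindrome, CCGGAAG (ETS) or AAGGTCA (estrogen-related receptor) on either strand. Sdhaf3 is the gene that passed, Sdha and Cox6a1 are subunits with several matches, and Cox8b is the muscle isoform. The positions are chr6:6955768-6956017 on the plus strand for Sdhaf3, and chr13:74350241-74350490, chr5:115348959-115349208 and chr7:140900447-140900696 on the minus strand for Sdha, Cox6a1 and Cox8b.
Sdhaf3: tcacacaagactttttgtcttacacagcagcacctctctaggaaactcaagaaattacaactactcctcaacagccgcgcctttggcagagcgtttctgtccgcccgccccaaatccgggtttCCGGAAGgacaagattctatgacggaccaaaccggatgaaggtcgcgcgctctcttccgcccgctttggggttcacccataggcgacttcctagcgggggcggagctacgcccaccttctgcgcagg
Sdha: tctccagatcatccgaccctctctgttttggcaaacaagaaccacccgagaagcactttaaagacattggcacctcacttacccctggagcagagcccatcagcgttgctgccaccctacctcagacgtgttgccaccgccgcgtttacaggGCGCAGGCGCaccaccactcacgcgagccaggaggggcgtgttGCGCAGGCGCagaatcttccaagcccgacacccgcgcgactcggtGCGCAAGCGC
Cox6a1: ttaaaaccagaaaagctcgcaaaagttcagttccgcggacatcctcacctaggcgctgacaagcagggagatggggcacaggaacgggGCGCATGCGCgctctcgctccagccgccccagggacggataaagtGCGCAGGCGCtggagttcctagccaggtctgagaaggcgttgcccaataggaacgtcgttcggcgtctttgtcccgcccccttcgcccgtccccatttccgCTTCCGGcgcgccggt
Cox8b: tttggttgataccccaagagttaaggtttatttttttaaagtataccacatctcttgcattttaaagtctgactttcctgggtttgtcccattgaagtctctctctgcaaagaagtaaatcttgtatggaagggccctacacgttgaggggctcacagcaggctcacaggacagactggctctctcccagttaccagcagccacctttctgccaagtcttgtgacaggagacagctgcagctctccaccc

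Of the 93 genes, 78 had a promoter in the table. Within 250 bases before to 50 after the start, on either strand, the NRF1 letters occurred in 20 of 83 promoters (24.1%), against 6.38% of promoters of protein-coding genes and 4.60% of all promoters. The ETS letters occurred in 22 (26.5%, against 11.6% and 8.86%), the YY1 motif in 4 (4.82%, against 0.889% and 0.633%) and AAGGTCA in 8 (9.64%, against 4.08% and 4.72%). Matches of different motifs shared a base 0 times. The promoters of these genes were also richer in G and C (median 59.0%, against 56.3% for protein-coding genes and 52.7% for all), and the part of base composition in the shares was not tested. A match is a description of letters, and Cox8b had none of these letters in its window. Sdhaf3 also held an NRF1 match, which reaches past the bases shown.

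Of 19 regulators of mitochondrial transcription and replication, 1 rose and 1 fell, where 2.45% of all genes rose and 2.33% fell. At an unadjusted p under 0.05, limma gave 8 higher and 1 lower, against 13.5% and 7.23% of all genes. Of the 6589 genes with a signal of 8 to 11, 1257 were higher and 608 lower at that threshold. Their median difference was 0.14, with 15 above 0, against a median of 0.06 over genes with a signal of 8 to 11. Mterf2 (0.55) and Mterf1a (0.54) did not pass (limma adjusted p = 0.0738 and 0.0613). Ppargc1a, the coactivator PGC-1alpha that drives mitochondrial biogenesis, fell from 11.24 ± 0.23 to 10.67 ± 0.07, a difference of -0.57 ± 0.12 (limma adjusted p = 0.0343). Each of its 5 probe sets passed downward, with differences of -0.49 to -1.13 (limma adjusted p of 0.0120 to 0.0343). For the brightest probe set the call was lost on leaving out any array except young replicate 3, with limma adjusted p up to 0.109. Tfb1m, which methylates mitochondrial ribosomal RNA, rose from 8.01 ± 0.13 to 8.55 ± 0.18 (0.54 ± 0.11, limma adjusted p = 0.0343). Its call was also lost on leaving out any array except young replicate 2, with limma adjusted p up to 0.116.

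The partners of PGC-1alpha that bind DNA did not pass. Esrra had 9.78 ± 0.16 in young and 9.74 ± 0.05 in old tissue, Nrf1 had 7.25 ± 0.11 and 7.31 ± 0.11, and Gabpa had 10.74 ± 0.06 and 10.80 ± 0.03. Esrrb, a receptor of strial marginal cells, had 11.02 ± 0.16 and 11.41 ± 0.17 (limma adjusted p = 0.101). Tfam, which packs and transcribes mitochondrial DNA, had 9.67 ± 0.20 and 9.98 ± 0.02 (limma adjusted p = 0.156). The marginal cell markers had a median difference of 0.09 over 8 genes with 0 called by limma (2 at an unadjusted p under 0.05), and their summed signal was 15.24 to 15.30 on young and 15.35 to 15.43 on old arrays. The part of these markers in the values above was not tested.

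**Figure D5:**
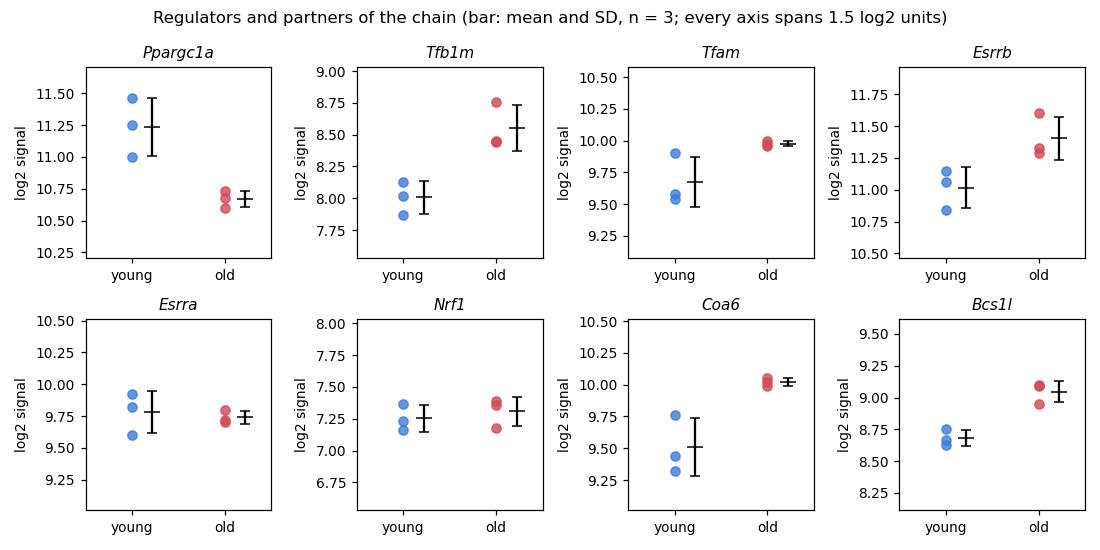
Log2 signal on each array for 6 regulators and 2 assembly genes outside the symbol rule, with young arrays in blue, old arrays in red, and the mean and SD of 3 arrays; every axis spans 1.5 log2 units. Ppargc1a is lower on each old array than on any young one, Tfb1m, Coa6 and Bcs1l are higher, and Esrra and Nrf1 overlap.

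Of 37 measured partners of the chain outside the symbol rule, 2 rose and 0 fell, where 2.45% of all genes rose and 2.33% fell. At an unadjusted p under 0.05, limma gave 9 of these partners higher and 0 lower, against 13.5% and 7.23% of all genes. Of the 6589 genes with a signal of 8 to 11, 1257 were higher and 608 lower at that threshold. Their median difference was 0.09, against 0.03 over all genes and 0.06 over genes with a signal of 8 to 11, and their median signal was 9.67. Coa6, a copper-handling factor of complex IV, rose from 9.51 ± 0.23 to 10.02 ± 0.03 (limma adjusted p = 0.0435). Bcs1l, which inserts the Rieske protein into complex III, rose from 8.68 ± 0.06 to 9.05 ± 0.08 (limma adjusted p = 0.0442). Both calls were lost on leaving out any array except young replicate 2, with limma adjusted p up to 0.159 for Coa6 and 0.184 for Bcs1l. The electron carrier Cycs (0.03 ± 0.08) and Cyc1, a complex III subunit that the symbol rule leaves out (-0.04 ± 0.09), did not pass. Neither did Atpif1, the inhibitor of ATP synthase (0.08 ± 0.08). Of the subunits encoded by mitochondrial DNA, ND5 was measured, with means of 13.88 ± 0.07 (young) and 13.82 ± 0.08 (old; limma adjusted p = 0.814).

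Of 18 genes for pyruvate dehydrogenase and the citric acid cycle, limma called 0 (0 at an unadjusted p under 0.05), the median difference was 0.03, and 14 had intervals within 0.3 log2 of 0. Of 16 glycolytic genes, limma called 0 as well (2 at an unadjusted p under 0.05), with a median of 0.03. The muscle isoform of phosphofructokinase, Pfkm, averaged 11.47 ± 0.10 at the young and 11.16 ± 0.06 at the old age (limma adjusted p = 0.0778).

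Of 9 bone genes 4 fell, among them Col1a2 (-2.69) and Dmp1 (-1.10), and of 13 marrow genes 8 fell, among them Mpo (-1.27) and Ngp (-1.62). For these and the lists below, 2.45% of all genes rose and 2.33% fell. Of 14 macrophage genes 3 rose, among them Lyz2 (1.56) and Cd68 (1.16), and Cd14 fell by 1.03. Aqp1 (-0.88) and Slc4a10 (-0.37) fell among 14 basal cell and fibrocyte genes, and Ednrb (-0.36) among 11 intermediate cell genes. Casq1 (-0.87) fell among the muscle markers and Adipoq (-0.86) among 9 fat genes. The summed signal was 13.16 to 13.41 on young and 11.69 to 12.15 on old arrays for bone, 11.32 to 11.90 and 9.86 to 10.71 for marrow, and 12.60 to 12.80 and 13.24 to 13.38 for macrophages. Their part in the levels of the respiratory chain genes was not tested.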

How the data were processed

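The table deposited by the authors holds log2 signals, as its range of values shows. RMA, MAS5 and the Affymetrix Expression Console are named in the submitters' processing notes, and which step each served is not given in the sources used here. If RMA made the table, a shift common to most genes would have been removed. Array medians were 6.26 to 6.30. The number of arrays limits the precision.

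After 64 control probe sets were left out, limma (version 3.58.1, run in R 4.3.3) was fitted to the remaining 45037 by lmFit and eBayes with a term for age and no other, and the Benjamini-Hochberg adjustment ran over all of these. Scripts were tested on simulated data. Symbols came from GEO's platform annotation, which gives 1 symbol for 34945 probe sets and several for 932 and does not list 9160, and all 93 genes matched RefSeq by Entrez identifier. Ndufa4 was counted with complex IV. Protein sequences were not used here.

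Genes were named if called, if among the 2 highest or 2 lowest of a complex, or if an isoform or a listed main subunit. They were also named if among up to 2 called per direction in each of 13 lists. Further genes were named for their role. The genes and lists were chosen with earlier results of these data known. Deviations of same-numbered samples correlated at 0.137, 0.0753 and 0.00782. Young replicates 1 and 2 each correlated best with the old sample of the same number, and young replicate 3 with old replicate 2. With 3 samples per age this cannot decide whether the numbers pair the samples, and the labels give no pairing.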

Additional observations from a re-analysis of the deposited data

How the results depend on the processing

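The median differences of the 81 subunits, the 5 complexes and the assembly factors stayed above 0 under each alternative run, and 0 subunits were called lower in any of them. Subunits called higher numbered 1 (Ndufb4) with array weights and 0 to 1 with an array left out. Of the 93 genes, 2 (Sdhaf3 and Ndufaf1) were called higher after quantile normalization again, without dim probe sets, or with an intensity trend and robust variance, 3 with array weights (these and Ndufb4), 1 with probe sets averaged per gene (Ndufaf1 and not Sdhaf3), 0 at an adjusted p of 0.01, 0 among the subunits alone, and 0 to 3 with an array left out. With an array left out, the median of complex I was 0.0267 (without young replicate 1) to 0.0667, of complex III 0.0208 (without old replicate 1) to 0.0583, of complex IV 0.0383 (without old replicate 1) to 0.0875, and of complex V 0.0217 (without young replicate 1) to 0.05. Called probe sets numbered 838 higher and 1281 lower, 2266 and 2214 with array weights, 116 and 320 at an adjusted p of 0.01, and 133 to 1851 and 382 to 1542 with an array left out. The counts of 1851 and 1542 came without young replicate 2. With the replicate number as a block, 829 were called higher and 1103 lower, and 1 of the 93 genes was called. The labels do not give this pairing, and the deviations cannot decide it. The block left Ppargc1a, Tfb1m and Bcs1l at adjusted p of 0.0546, 0.0633 and 0.0626. The cause of these changes was not tested. Dim probe sets such as that of Ndufb4 limit what can be said of the genes they represent.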
